A study of Danio rerio with 2 samples.

Results

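Genes for collagens, basement membrane proteins, other structural matrix proteins and integrins were described in the livers of ambp knockout and wild-type zebrafish (Danio rerio). Members were taken from the deposited gene table by name. A gene was a member when its deposited symbol or its name in the Ensembl name table began as a collagen alpha chain, a laminin chain, an integrin alpha or beta chain with a number, a TIMP, fibronectin (fn1), nidogen, fibrillin or lysyl oxidase. This gave 147 of the 25939 genes. Of these, 47 had at least 1 CPM (read counts scaled to library size) in either library, the level taken here as measured. The other 100 were at or near the detection limit, and 48 of them had 0 reads in both libraries.

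The samples were 1 liver library from ambp ko fish and 1 from WT fish, both fed a high-fat diet. The ambp gene encodes the precursor of alpha-1-microglobulin and of bikunin, the light chain of the inter-alpha-trypsin inhibitors, which bind the matrix glycan hyaluronan. The ambp allele, the age and sex of the fish and the number of fish behind each library are not given in the sources used here. With 1 library per genotype the differences have no replicate check and no p-value is given. Intervals are at 95% and cover counting error only, not the choice of library scaling.

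The extracellular matrix of the liver is thin outside scars. Fibrillar collagens, made in liver mainly by stellate cells and portal fibroblasts, form the load-bearing fibres, while collagen IV, laminins and nidogens build basement membranes around vessels and ducts. Plasma fibronectin is secreted by hepatocytes into the blood. Integrins are alpha-beta pairs in the cell membrane that bind these proteins, and the beta 2 and beta 7 chains are largely those of white blood cells.

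The knockout library held 18357830 reads and the wild-type library 15659846. The targeted gene, ambp, was at 154 CPM in the knockout and 3506 CPM in wild type, so the labels and the target gene's level point the same way. All 12 listed hepatocyte marker genes were measured and their summed level was 193278 CPM in the knockout and 219403 CPM in wild type. Among all 11634 genes measured, 628 were at least 2-fold higher in the knockout and 744 at least 2-fold lower, by a log2 ratio with a pseudocount of 1 CPM past 1 or -1. Of the 12 hepatocyte markers, 9 had a log2 ratio below 0 and 3 above, with a median of -0.38. Only 1 was past the rule, cebpa, with 93 reads in the knockout and 186 in wild type (-1.31). The hnf4a gene fell just short of it, at 57.8 CPM in the knockout and 116 CPM in wild type. Without the pseudocount hnf4a was 2.01-fold lower (1.87 to 2.17).

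Of the 47 measured members, 3 were set apart, as not matrix or integrin genes or as of uncertain identity. They were itgb1bp1, which encodes a protein that binds an integrin tail, loxhd1, which is not a lysyl oxidase, and ENSDARG00000037517, named COL14A1 in the deposited table but slc35c2 in the name table. This last gene had 8.68 CPM in the knockout and 20.7 CPM in wild type, and whichever name is right it is not counted here among the collagens. Its log2 ratio was -1.16, at least 2-fold lower. With the 3 genes kept in, 6 of the 47 members were at least 2-fold lower, 12.8%. The other 44 were 15 collagens, 7 laminin and nidogen genes, 13 integrins and 9 other matrix genes. Of these 44, 6 reached 1 CPM only in the knockout and 4 only in wild type. The nearest gene inside this limit was itga11, with 0.698 CPM in the knockout and 1.05 CPM in wild type, and the nearest outside it were itga2.3, with 0.15 CPM in the knockout and 0.976 CPM in wild type, and col14a1 (ENSDARG00000005762), with 0.449 CPM in the knockout and 0.976 CPM in wild type.

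By the 2-fold rule 3 of the 44 members were higher in the knockout, 6.82%, where 5.4% of all genes were. Another 5 were lower, 11.4%, where 6.4% of all genes were. Together 18.2% of the members and 11.8% of all genes passed the rule. When plain library totals replaced the TMM scaling, 7 members were higher and 4 lower, beside 9.12% and 4.13% of all genes. The shares depend on level, since 5 of the 11 members with at least 10 CPM passed, against 14.5% of all genes at that level, while 1 of 16 members under 3 CPM did, against 7.5% of all genes. Part of this is set by the pseudocount in the rule. A gene under 3 CPM can pass only if its other library is under 1 CPM. The 5 abundant members included 2 itgb1 genes, 1 of them with uncertain counts, and an assembled locus whose identity is uncertain, all described with their values where they come up.

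**Figure D1:**
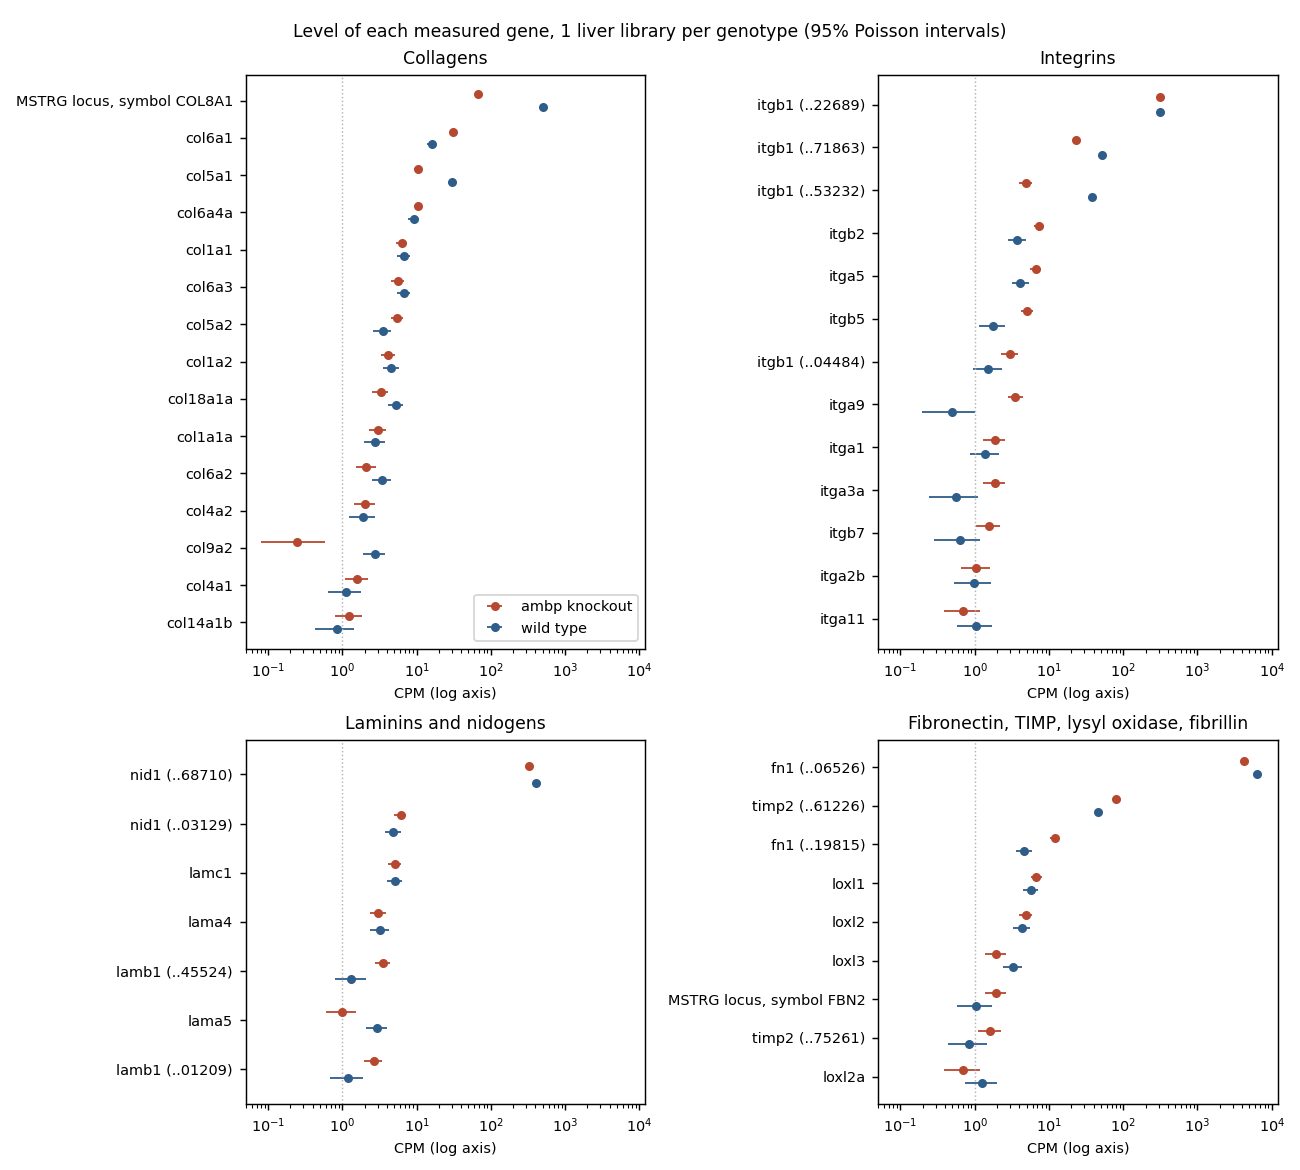
Level of each of the 44 measured genes in CPM on a log axis, in the ambp knockout library (red) and the wild-type library (blue), with 95% Poisson intervals; the dotted line is 1 CPM. One fn1 gene stands at 4207 CPM in the knockout and 6233 CPM in wild type, far above nearly all others, and most genes lie under 10 CPM in both libraries.

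The abundant fibronectin gene carried most of the matrix reads and was lower in the knockout, by less than 2-fold. This gene, fn1 (ENSDARG00000006526), had 84327 reads and 4207 CPM in the knockout, against 89401 reads and 6233 CPM in wild type. Its ratio of knockout over wild type was 0.675, with a counting interval of 0.669 to 0.681. With plain library totals its log2 ratio was -0.31, where the median of all genes was 0.22. With TMM these were -0.57 and 0.00. The gene made up 81.0% of the reads of the 44 members in the knockout and 80.5% in wild type. Per length it was also the highest member, at 557 FPKM in the knockout and 697 FPKM in wild type as deposited.

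The second fn1 gene went the other way. With 238 reads and 11.9 CPM in the knockout, against 67 reads and 4.67 CPM in wild type, fn1 (ENSDARG00000019815) was 2.54-fold higher (1.93 to 3.39) and passed the rule with a log2 ratio of 1.18. Zebrafish have an fn1a and an fn1b gene, and the tables used here do not say which of these names belongs to which identifier. The second gene supplied so few reads that both fn1 genes summed to 4219 CPM in the knockout and 6238 CPM in wild type, a log2 ratio of -0.56. In the deposited FPKM the second gene was at 1.48 in the knockout and 0.49 in wild type, a ratio of 3.02, though with 1 FPKM added to both values the log2 ratio was 0.74.

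Collagen genes showed no shared direction. Of 68 collagen names in the table, 53 were not measured, among them 25 with 0 reads in both libraries. The 15 measured had a median log2 ratio of -0.08, beside 0.00 for all genes, with 7 above 0 and 8 below. None was 2-fold higher and 3 were 2-fold lower, where 5.4% and 6.4% of all genes were. Without the assembled locus named COL8A1 the median was -0.01. The 14 measured collagen genes with an Ensembl identifier lay between 0.249 and 31.2 CPM in the knockout and between 0.837 and 29.9 CPM in wild type.

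Collagen I, the main fibre-forming collagen of scars, was nearly level between the libraries. The 3 measured chain genes were col1a1 (ENSDARG00000035809), with 126 reads in the knockout and 96 in wild type, col1a2, with 84 reads in the knockout and 65 in wild type, and col1a1a, with 60 in the knockout and 40 in wild type. Their log2 ratios lay between -0.09 and 0.08. Summed, collagen I stood at 13.5 CPM in the knockout and 14.0 CPM in wild type. The ratio of the sums was 0.961 with an interval of 0.798 to 1.16, so a difference within that range was not detectable at this depth. Per length, col1a1 was at 1.22 FPKM in the knockout and 1.09 FPKM in wild type.

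Collagen V, a minor fibrillar collagen that sets the width of collagen I fibres, had chains at opposite ends. The col5a1 gene (ENSDARG00000012593) had 211 reads and 10.5 CPM in the knockout, against 429 reads and 29.9 CPM in wild type. It was 2.84-fold lower (2.40 to 3.37), with a log2 ratio of -1.42. Its partner col5a2 had 110 reads and 5.49 CPM in the knockout, against 50 reads and 3.49 CPM in wild type, which is 1.57 times the wild-type level (1.12 to 2.25) and under the rule. The intervals of the 2 ratios do not overlap. In wild type col5a1 had more reads than any collagen I chain, and per length it was at 1.25 FPKM in the knockout and 2.91 FPKM in wild type.

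Collagen VI, which forms beaded filaments near cells, had its chains on both sides of 0. The col6a1 gene had the most reads of any collagen with an Ensembl identifier in the knockout, where col5a1 had in wild type. It had 626 reads and 31.2 CPM in the knockout, against 230 reads and 16.0 CPM in wild type. Its ratio was 1.95 (1.67 to 2.28) and its log2 ratio 0.92, under the rule. The other 3 chains did not show this, since col6a2 had a ratio of 0.613 (0.396 to 0.946), col6a3 of 0.835 (0.630 to 1.11) and col6a4a of 1.15 (0.922 to 1.44). Summed over the 4 genes, collagen VI was at 49.4 CPM in the knockout and 35.3 CPM in wild type, a difference that came from col6a1.

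The basement membrane collagen IV was barely detected. The col4a1 gene had 32 reads in the knockout and 16 in wild type, and col4a2 had 40 in the knockout and 27 in wild type. Both intervals of the ratio, 0.763 to 2.79 and 0.635 to 1.80, include 1. The precursor of endostatin, col18a1a, had 66 reads in the knockout and 76 in wild type, a ratio of 0.621 (0.440 to 0.876). The fibril-associated col14a1b had 25 and 12 reads in the knockout and wild-type libraries, with an interval that includes 1.

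The remaining 2 collagens past the rule are of doubtful weight. A cartilage collagen in other vertebrates, col9a2 (ENSDARG00000024492), had 5 reads in the knockout and 39 in wild type, a 10.9-fold difference with an interval of 4.29 to 35.4, and the deposited table gives it no symbol. It reached 1 CPM only in wild type. The locus MSTRG.7771 was assembled from reads and carries only the deposited symbol COL8A1. It had 1348 reads and 67.3 CPM in the knockout, against 7274 reads and 507 CPM in wild type, and was 7.54-fold lower (7.11 to 8.0). The gene length implied by its counts and FPKM was 756 bases. The col8a1a gene of the name table, by contrast, had 4 reads in the knockout and 1 in wild type. Whether the locus is a collagen was not tested.

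No single laminin or nidogen gene passed the 2-fold rule, which carries the pseudocount. The 7 measured genes had log2 ratios between -0.98 and 0.95, with a median of 0.00, and 15 further names were not measured. Nidogen links laminin to collagen IV, and 1 nid1 gene (ENSDARG00000068710) supplied most reads of the group, with 6573 reads and 328 CPM in the knockout and 5853 reads and 408 CPM in wild type. Its ratio was 0.804 (0.776 to 0.833) and its log2 ratio -0.31. With plain library totals that log2 ratio was -0.06, where the median of all genes was 0.22. A second nid1 gene had 122 reads in the knockout and 69 in wild type, with an interval of 0.934 to 1.73.

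Laminins are trimers of an alpha, a beta and a gamma chain, and the ratios of the chains differed. Both lamb1 genes, of the beta chain, had more reads in the knockout. The first (ENSDARG00000045524) had 70 reads there and 19 in wild type, 2.64 times the wild-type level (1.57 to 4.64), and the second (ENSDARG00000101209) had 53 and 17 in the knockout and wild type, 2.23 times (1.27 to 4.11). Their log2 ratios with the pseudocount were 0.95 and 0.74, and the first was the nearest member outside the rule on the upper side. Summed, the lamb1 genes had 123 reads in the knockout and 36 in wild type, a ratio of 2.44 (1.67 to 3.65) and a log2 ratio of 1.02, past the rule. The gamma chain lamc1 was level, at 5.09 CPM in both libraries, and so was lama4, an alpha chain of vessel walls, at 3.04 CPM in the knockout and 3.21 CPM in wild type. Another alpha chain, lama5, had 20 reads in the knockout and 42 in wild type, 2.93-fold lower (1.68 to 5.28). At -0.98 it lay just outside the rule on the lower side.

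**Figure D2:**
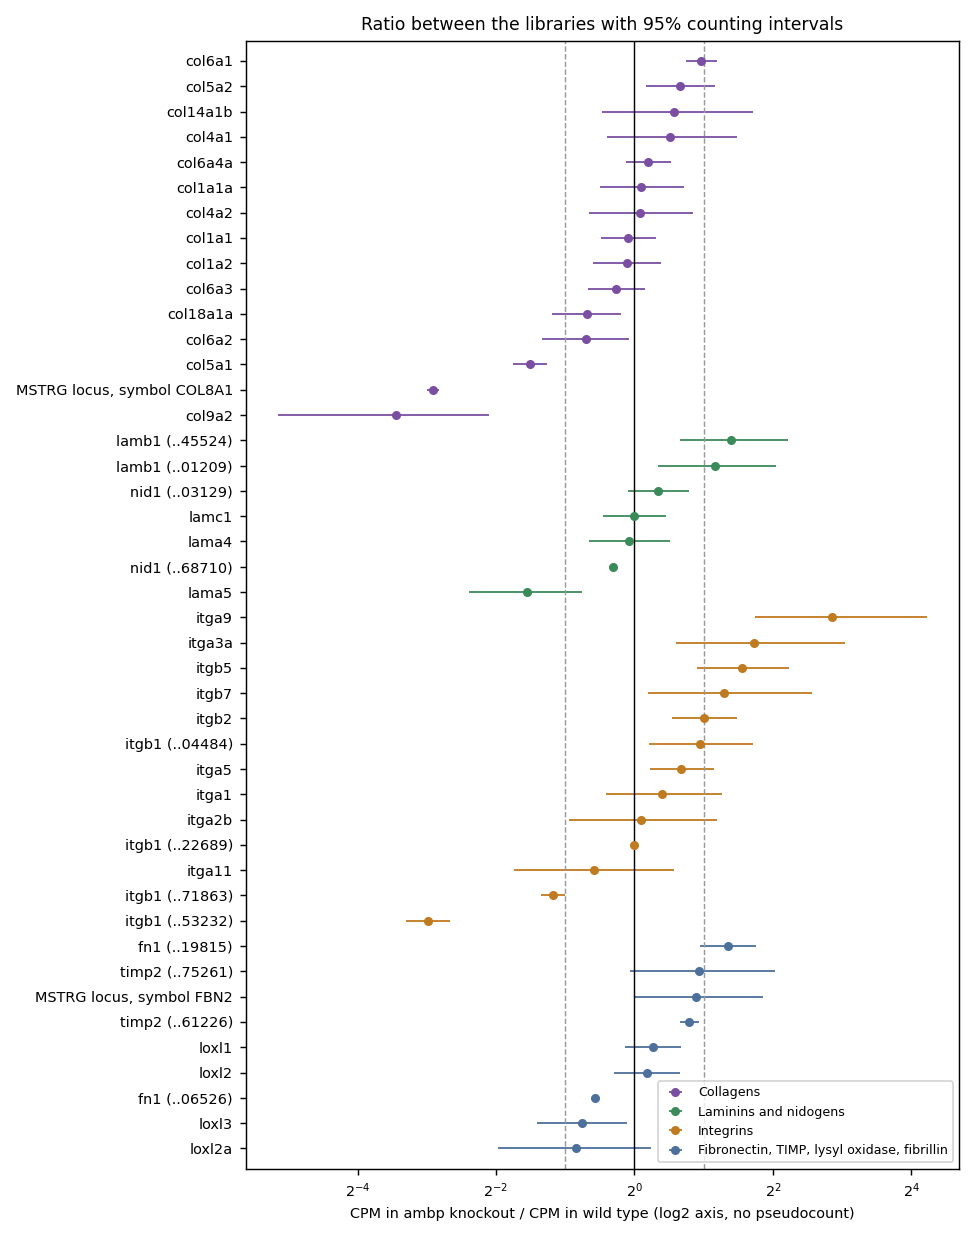
Ratio of CPM in the ambp knockout library to CPM in the wild-type library for the 44 measured genes, without a pseudocount, on a log2 axis with 95% counting intervals; colours mark the 4 groups, the solid line is equality and the dashed lines are 2-fold. Collagen I, collagen IV and lamc1 intervals cover equality. Left of the 2-fold line lie col5a1, col9a2, lama5, the locus named COL8A1 and 2 itgb1 genes (ENSDARG00000053232 and ENSDARG00000071863). Right of it lie itga9, itga3a, itgb5, both lamb1 genes, the second fn1 gene and itgb7.

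Among integrins, most measured genes outside itgb1 had more reads in the knockout, at low levels. The 13 measured integrins had a median log2 ratio of 0.57, beside 0.00 for all genes. By the rule 2 were higher and 2 lower, 15.4% each, where 5.4% and 6.4% of all genes were. One of the 2 lower is an itgb1 copy whose counts are uncertain, as described below. The median depended on which genes were counted: 4 of the 13 reached 1 CPM only in the knockout, the higher gene itga9 among them. These 4 passed the filter through the library in which they were high. Relative to the median of all genes, the integrin median was 0.03 with no filter, over 26 integrins, and -1.05 over the 3 integrins with at least 10 CPM. These 3 were all itgb1 copies, among them the pair whose counts are uncertain. The integrins added with no filter were under 1 CPM in both libraries, where the pseudocount draws log2 ratios toward 0. On the same relative scale the integrin median was 0.56 with library totals and 0.27 with the deposited FPKM. A further 19 integrin names were not measured.

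The integrin genes higher by the rule were itga9 and itgb5. The alpha 9 chain, known in mammals for binding tenascin and for its part in lymphatic valves, had 71 reads and 3.54 CPM in the knockout, against 7 reads and 0.488 CPM in wild type, 7.26 times the wild-type level with a wide interval of 3.35 to 18.7. The beta 5 chain, a receptor for vitronectin with the alpha v chain, had 102 reads and 5.09 CPM in the knockout, against 25 reads and 1.74 CPM in wild type, 2.92 times (1.87 to 4.72). It was the member nearest inside the rule on the upper side, at 1.15. Its alpha partner itgav, whose name the member rule does not catch, had 138 reads in the knockout and 29 in wild type, and its log2 ratio was 1.38.

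Integrin genes of white blood cells also had more reads in the knockout, under the rule. The beta 2 chain gene itgb2 had 148 reads and 7.38 CPM in the knockout, against 53 reads and 3.70 CPM in wild type, a ratio of 2.0 (1.45 to 2.79) and a log2 ratio with the pseudocount of 0.84. The beta 7 chain gene itgb7 had 31 reads in the knockout and 9 in wild type, with a log2 ratio of 0.65. In the same libraries 15 of 21 macrophage marker genes were measured. Of these, 7 were at least 2-fold higher in the knockout and none lower, where 5.4% and 6.4% of all genes were, and 3 of the 7 reached 1 CPM only in the knockout. The listed markers summed to 467 CPM in the knockout and 363 CPM in wild type, while timd4 and csf1rb were at 0 in both. Neutrophil markers summed to 52.3 CPM in the knockout and 33.8 CPM in wild type, with 3 of 7 measured. Most of that sum was srgn, at 44.3 CPM in the knockout and 31.0 CPM in wild type. Past the rule was only the lysozyme gene lyz, where 5.4% of all genes were higher. It had 94 reads in the knockout and 4 in wild type, a ratio of 16.8 (6.35 to 63.0). It reached 1 CPM only in the knockout. The third measured marker, mmp9, had 44 reads in the knockout and 35 in wild type, a ratio of 0.9 (0.564 to 1.44). Lymphocyte markers summed to 3.89 CPM in the knockout and 3.83 CPM in wild type, with pax5 at 0 in both. Only 2 of 10 were measured, and these were past the rule in opposite directions, which the sums hide. Of all genes 5.4% were higher and 6.4% lower. The higher marker, ighm, had 35 reads in the knockout and 4 in wild type, a ratio of 6.26 (2.24 to 24.3). The lower marker, il7r, had 12 reads in the knockout and 41 in wild type, a ratio of 0.209 (0.1 to 0.406). Each passed the filter only through the library in which it was high, ighm through the knockout and il7r through wild type. The part of these cells in the integrin values was not tested, and in bulk tissue a difference in cell number and one in RNA per cell cannot be told apart.

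Among the other integrins, the fibronectin receptor chain itga5 had 132 reads in the knockout and 59 in wild type, 1.60 times (1.17 to 2.21). The laminin-binding chain itga3a had 37 and 8 reads in the knockout and wild type, 3.31 times (1.52 to 8.23), and a log2 ratio of 0.87 with the pseudocount. Of the collagen-binding chains, itga1 had 37 reads in the knockout and 20 in wild type and itga11 had 14 in the knockout and 15 in wild type, and both intervals include 1. The unmeasured itga2.3, of an alpha 2 chain, had 3 reads in the knockout and 14 in wild type, 6.52-fold lower (1.82 to 35.4). The platelet and thrombocyte chain itga2b (named ITGA8 in the deposited table) had 21 reads in the knockout and 14 in wild type, a ratio of 1.07 (0.521 to 2.28). Thrombocyte markers summed to 6.79 CPM in the knockout and 10.3 CPM in wild type, with 3 of 10 measured. The log2 ratios of these 3 ran from -1.13 to 0.54. By the rule 1 was lower, where 6.4% of all genes were, and none higher. Of the 3, 1 reached 1 CPM only in wild type.

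The beta 1 chain, which pairs with most alpha chains, is represented by 4 measured itgb1 genes that differed from each other far more than their sum did between libraries. The abundant copy (ENSDARG00000022689) had 6272 reads and 313 CPM in the knockout, against 4480 reads and 312 CPM in wild type, a ratio of 1.0 (0.964 to 1.04). A second (ENSDARG00000071863) had 457 reads and 22.8 CPM in the knockout, against 740 reads and 51.6 CPM in wild type, 2.26-fold lower (2.01 to 2.55). It was the member nearest inside the rule on the lower side, at -1.14. The third (ENSDARG00000053232) had 97 reads and 4.84 CPM in the knockout, against 547 reads and 38.1 CPM in wild type, 7.88-fold lower (6.34 to 9.88). The fourth (ENSDARG00000104484) was at 2.94 CPM in the knockout and 1.53 CPM in wild type.

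The counts of the abundant and the third copy complete each other. As deposited they were not whole, 6271.84 and 97.16 in the knockout and 4479.73 and 547.27 in wild type, yet summed to 6369 in the knockout and 5027 in wild type. No other gene in the table had fractions that complete those of either copy in both libraries. Taken as a single gene, the pair was at 318 CPM in the knockout and 350 CPM in wild type, a ratio of 0.907 (0.874 to 0.941). The values of either copy depend on how reads were assigned within the pair and are uncertain. All 4 copies together were at 344 CPM in the knockout and 404 CPM in wild type, a ratio of 0.851 (0.822 to 0.881). These sums use the TMM scaling, and differences this small depend on it. With plain library totals the abundant copy had a log2 ratio of 0.26, where the median of all genes was 0.22.

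**Figure D3:**
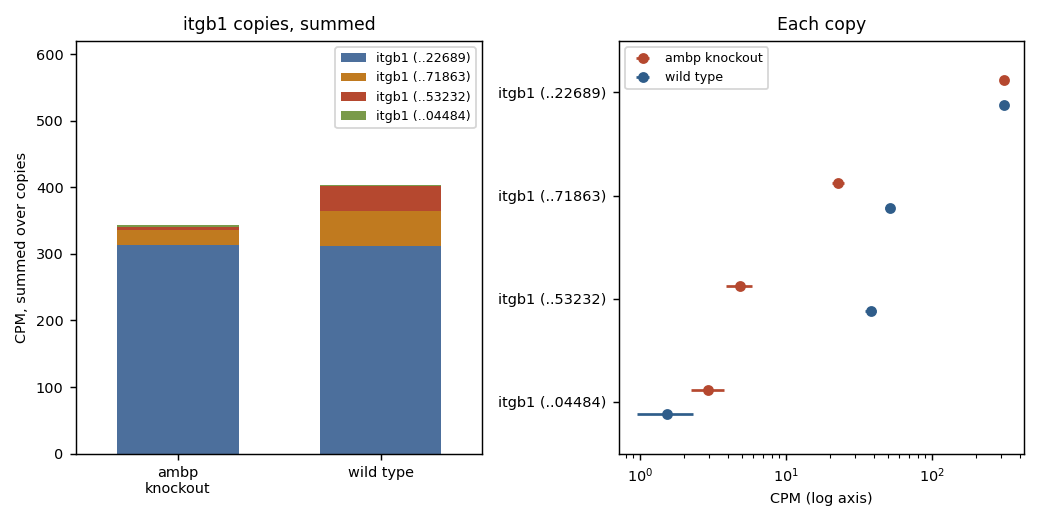
The 4 measured itgb1 genes in the ambp knockout and wild-type libraries, summed as stacked bars in CPM (left) and singly on a log axis with 95% Poisson intervals (right); digits are the ends of the Ensembl identifiers. The most abundant copy is level at 313 CPM in the knockout and 312 CPM in wild type, and the next most abundant copies are lower in the knockout.

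Matrix crosslinking and protease inhibitor genes showed small differences. Among lysyl oxidases, which crosslink collagen and elastin, loxl1 had 136 reads in the knockout and 81 in wild type and loxl2 (ENSDARG00000044074) had 98 in the knockout and 62 in wild type, and both intervals include 1. The same held for loxl2a, with 14 reads in the knockout and 18 in wild type. For loxl3, with 39 reads in the knockout and 47 in wild type, the ratio was 0.594 (0.378 to 0.928). The lox gene itself had 0 reads in both libraries. The metalloproteinase inhibitor timp2 (ENSDARG00000061226) was the most abundant of these genes, with 1607 reads and 80.2 CPM in the knockout, against 665 reads and 46.4 CPM in wild type. Its ratio was 1.73 (1.58 to 1.90), under the rule. A second timp2 gene had 32 reads in the knockout and 12 in wild type, a ratio of 1.91 (0.957 to 4.07). An assembled locus with the symbol FBN2, for a fibrillin, had 39 reads in the knockout and 15 in wild type, a ratio of 1.86 (1.0 to 3.63). In this group 11 names were not measured.

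Matrix assembly and turnover genes that are not members were listed separately. Of these 89 genes 43 were measured, with a median log2 ratio of -0.09. By the rule 1 of the 43 was higher and 2 lower, where 5.4% and 6.4% of all genes were. The higher gene was one for the membrane-bound metalloproteinase mmp14 (ENSDARG00000008388), with 394 reads in the knockout and 106 in wild type (1.30). Of the lower genes, one was pcolce2, an enhancer of procollagen processing, with 69 reads in the knockout and 181 in wild type (-1.62). The other was p4hb, a subunit of prolyl hydroxylase and an endoplasmic reticulum oxidoreductase, with 9138 reads in the knockout and 14743 in wild type (-1.17). Under the rule, the gelatinase mmp2 stood at 0.50, the procollagen proteinase gene bmp1 (ENSDARG00000028071) at 0.77, its enhancer pcolcea at 0.76, the collagen-degrading cathepsin ctsk at 0.90 and the collagen-binding sparc at -0.26. Vitronectin, a plasma ligand of the alpha v integrins made by hepatocytes, had 965 CPM in the knockout and 991 CPM in wild type for its more abundant gene.

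An integrin adhesion list held integrin chains that the member rule misses, membrane partners such as tetraspanins, and proteins that tie integrins to the cytoskeleton. Its median log2 ratio was 0.44 over 32 measured of 50 genes, and 6 of the 32, fermt2 among them, reached 1 CPM only in the knockout. By the rule 2 were higher and 1 lower, where 5.4% and 6.4% of all genes were. Besides itgav, the higher gene was fermt2, a kindlin that activates integrins, with 65 reads in the knockout and 12 in wild type (1.21). The lower gene was parvb, an adaptor of the integrin-linked kinase, with 6 reads in the knockout and 34 in wild type (-1.38). It reached 1 CPM only in wild type. The talin gene tln1 was at 0.44 and the kinase gene ilk at -0.44.

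Markers of the cells that make matrix differed little in sum. Stellate cell or fibroblast markers stood at 137 CPM in the knockout and 139 CPM in wild type, with 9 of 19 genes measured and a median log2 ratio of -0.01, and both lratb copies were at 0 in both libraries. The largest part of these sums was 1 myl9 gene (ENSDARG00000008030), at 69.6 CPM in the knockout and 68.3 CPM in wild type. Next came colec11, at 22.3 CPM in the knockout and 23.6 CPM in wild type, and lrat, at 19.9 and 23.6 CPM. The sums therefore say little about the other markers. Within this list pdgfrb had 70 reads in the knockout and 68 in wild type, a scaled ratio of 0.737 (0.520 to 1.04). The hand2 gene had 72 reads in the knockout and 39 in wild type, a ratio of 1.32 (0.883 to 2.0). By the rule 2 of the 9 were higher and none lower, where 5.4% and 6.4% of all genes were. One was the smooth muscle actin gene acta2, used as a mark of activated stellate cells in mammals, with 86 reads in the knockout and 9 in wild type (1.70). The other was a second myl9 copy, with 51 reads in the knockout and 11 in wild type. Both reached 1 CPM only in the knockout. Of the 9 genes, 4 had a log2 ratio above 0 and 5 below. Among those below, tagln (ENSDARG00000033466) had a ratio of 0.748 (0.606 to 0.923) and lrat one of 0.845 (0.729 to 0.979). Endothelial markers summed to 103 CPM in the knockout and 99.6 CPM in wild type, with none of 12 measured genes past the rule. Of all genes 11.8% were. Much of each sum was kdrl, at 47.1 CPM in the knockout and 45.8 CPM in wild type. Log2 ratios were above 0 for 8 genes and below for 4. Without the pseudocount flt1 had a ratio of 0.497 (0.348 to 0.706), flt4 of 0.546 (0.357 to 0.832) and plvapa of 3.22 (1.3 to 9.54). The plvapa gene reached 1 CPM only in the knockout. Intervals of the other measured genes include 1. Bile duct markers summed to 2749 CPM in the knockout and 2298 CPM in wild type. Of the 8 measured, only the keratin gene krt18a.1 was past the rule, at 1065 CPM in the knockout and 491 CPM in wild type. This difference is larger than that of the sums. The keratin gene krt8 was at 1081 CPM in the knockout and 1094 CPM in wild type, and anxa4 at 371 CPM in the knockout and 514 CPM in wild type. Skeletal muscle markers summed to 0.698 CPM in the knockout and 0.279 CPM in wild type. Exocrine pancreas markers, by contrast, summed to 398 CPM in the knockout and 35.9 CPM in wild type. All 12 measured genes of that list were at least 2-fold higher, where 5.4% of all genes were. How far pancreas or duct tissue contributed to the matrix and integrin values was not tested.

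**Figure D4:**
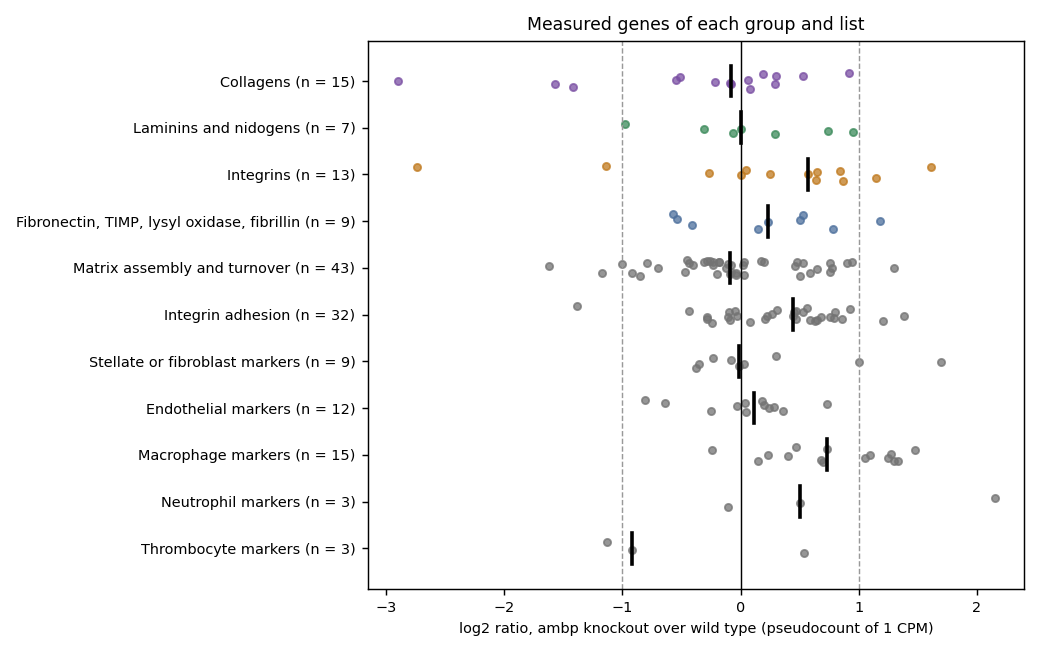
Log2 ratio of ambp knockout over wild type, with a pseudocount of 1 CPM, for the measured genes of the 4 groups (colours) and of related gene and cell marker lists (grey); thick bars are medians, the solid line is the median of all genes and the dashed lines are 2-fold. Collagens and stellate cell markers centre near 0, at -0.08 and -0.01, while integrins, integrin adhesion genes and macrophage markers centre at 0.57, 0.44 and 0.73. Of these last, 4 of 13 integrins, 6 of 32 adhesion genes and 4 of 15 macrophage markers reached 1 CPM only in the knockout. With no filter the integrin median was 0.03 relative to that of all genes, and the pseudocount draws the genes this adds toward 0. The 3 thrombocyte markers centre at -0.92, and 1 of them reached 1 CPM only in wild type.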

How the data were processed

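Per the labels' protocols, total liver RNA was taken with TRIzol, poly(A) RNA was enriched and fragmented, and cDNA libraries were made. The submitters' processing notes name HISAT2, featureCounts and GRCz11, without roles or versions. The authors deposited estimated counts and FPKM per gene, per the file headers. The estimated counts, not whole for 6.01% of genes in the knockout and 5.45% in wild type, were rounded first. Names came from an Ensembl name table, which held 137 of the 147 members; RefSeq names were not tied to identifiers. A genome and sequences were not used here.

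Library sizes were scaled by TMM (edgeR 4.0.16; factors 1.09 for the knockout and 0.916 for wild type). One read equalled 0.0499 CPM in the knockout and 0.0697 CPM in wild type. Levels carry exact Poisson intervals and ratios exact conditional binomial (Clopper-Pearson) intervals. Log2 ratios are of CPM plus 1. Folds and ratios have no pseudocount. FPKM use the authors' scaling; of 28 members with at least 0.5 FPKM in both libraries, 22 implied the same gene length within 5% in both, and the abundant nid1 and the second itgb1 gene did not. Genes named were the 3 most abundant of each group, those past the 2-fold rule, those nearest to it, and their copies and chain partners; the other measured members were added so that each is accounted for. Listed names were matched to the tables, without a copy letter where needed; 1 read-sharing check and the settings added later are named in the closing section. Methods were tested on simulated data. Members, lists and rules were chosen with earlier results of these data known.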

Additional observations from a re-analysis of the deposited data

How the results depend on the processing

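No paired analysis was possible because there was 1 library per genotype. Medians here are less that of all genes, which was 0.22 with library totals, 0.19 with FPKM and between -0.10 and 0.04 otherwise. The 3 higher members became 7 with library totals or a pseudocount of 0.1 CPM, 0 with 5 CPM or at 4-fold, 1 with at least 10 CPM and 11 at 1.5-fold. The 5 lower members became 2 at 4-fold. With FPKM plus 1 and a filter of 1 FPKM, which left 24 of the 44 genes, 0 were higher and 2 lower, MSTRG.7771 and the third itgb1 gene. Of the 9472 genes at that filter, 646 were higher and 358 lower. By the plain FPKM ratio of the same 44 genes, added after seeing the data, 15 were higher and 5 lower. This ratio has no pseudocount and was not set against the median of all genes. Its share over all genes was not computed, so these counts are not read as a result about the members. With library totals the second itgb1 gene missed the rule. Other filters and thresholds take in different genes; elsewhere the cause was not tested. With at least 10 CPM the medians were -0.52 over 4 collagens, -1.05 over 3 integrins, all itgb1 copies, and 0.88 over 3 other matrix genes. With no filter that of the integrins was 0.03. All other settings listed moved the group medians by less than the counting error of their middle member: DESeq2 size factors (DESeq2 1.42.0), library totals, both pseudocounts, FPKM, the mean, and settings chosen after seeing the data (no assembled loci, the itgb1 pair summed, which left 4 lower, and no itgb1 genes). Across 5 scalings, pseudocounts or units for each of 47 genes, 227 ratios stayed within counting error, 8 moved beyond it and 0 of those past the rule changed sign. Depth limits the low genes: itga11, with 14 reads in the knockout and 15 in wild type, has a ratio interval of 0.299 to 1.48.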

Other observations

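Of the 1089 genes whose deposited counts were not whole in both libraries, 543 had at least 1 other gene whose fractions complete theirs in both, as for the itgb1 pair. The locus MSTRG.7771 had 2 such genes, MSTRG.7769 (symbol Tep1), with 59.95 reads in the knockout and 12.18 in wild type, and ENSDARG00000113804 (symbol Btn2a2), with 8.95 and 6.18 in the knockout and wild type. The locus itself had 1348.05 reads in the knockout and 7273.82 in wild type. An unnamed gene with the deposited symbol Itgb1 had 12 reads in the knockout and 2 in wild type and was not measured. Summed over the 44 measured members, matrix and integrin genes took 0.567% of all reads in the knockout and 0.710% in wild type, or 0.108% and 0.139% in the knockout and wild type without the abundant fn1 gene.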
